A study of Arabidopsis thaliana with 8 samples.

Results

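Protein-coding genes carried by the chloroplast genome of *Arabidopsis thaliana* were examined in seeds that lack the CHD3 chromatin remodelers PKL and PKR2. They are the 84 genes whose locus tag begins with ArthCp, of 129 on the chloroplast genome and 38209 in each deposited table. This rule uses the identifier and no expression value, and repeated genes are counted once per copy. Seeds of 4 genotypes were compared, all in the Col-0 background: Col-0 itself, the *pkr2-2* single mutant, the *pkl-1* single mutant and the *pkr2-2;pkl-10* double mutant. *pkr2-2* and *pkl-10* are T-DNA insertion lines, all of these alleles are described as null, and the double mutant carries a different *pkl* allele from the *pkl* single mutant, so allele and genotype cannot be told apart in that comparison. Each genotype had 2 biological replicates, and each replicate was the pooled seeds of at least 30 siliques from hand-selfed plants grown in long days. The tissue label gives 4 days after pollination and the harvest protocol gives 3.

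The chloroplast genome encodes part of the photosynthetic apparatus and part of the machinery that expresses it. Its genes are transcribed by a bacterial-type RNA polymerase, whose core subunits are the chloroplast *rpo* genes and which needs nuclear-encoded sigma factors, and by a phage-type polymerase that is itself nuclear-encoded. Most are co-transcribed in long polycistronic units that are then processed by nuclear-encoded RNA-binding proteins. PKL and PKR2 act on nuclear chromatin. In young seeds, chloroplasts are found in the embryo, the endosperm and the seed coat.

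Values were deposited as FPKM (fragments per kilobase, scaled to the depth of the library), 1 value per genotype and table, averaged over both replicates by the authors. Replicate values given here, written a and b for each genotype, were reconstructed from the small differences in scaling between tables that share a genotype. All are on the scale of the table of the double mutant against Col-0. A log2 ratio is that of the authors' means within a table, with no test. A gene is said to have fallen or risen only where the reconstructed replicates passed limma's moderated test on log2(FPKM + 0.1), at a Benjamini-Hochberg adjusted p under 0.05 over 18223 genes, 57 of them chloroplast-encoded. With 2 replicates a genotype, precision is limited by their spread.

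The check of the genotypes showed *PKR2* at 3.38 and 3.76 FPKM in Col-0, 0.249 and 0.143 in *pkr2-2* and 0.110 and 0.130 in the double mutant. *PKL* was at 13 and 14.2 FPKM in Col-0, 16.6 and 15.6 in *pkl-1* and 2.17 and 2.71 in the double mutant, so the transcript level does not check the *pkl-1* label. The 28 single-copy chloroplast genes of at least 600 nucleotides held an estimated 4712 and 8626 fragments in Col-0, 6924 and 6596 in *pkr2-2*, 3217 and 3544 in *pkl-1* and 1779 and 2149 in the double mutant. The 2 Col-0 replicates stood apart for these genes: replicate b was higher in 38 of the 47 single-copy genes of at least 300 nucleotides, by a median of 0.54 on the log2 scale, while the nuclear median was -0.05. In the double mutant replicate b was higher in 36 of 46, by a median of 0.62. The chloroplast-encoded genes therefore moved together between replicates of a genotype, and the calls for single genes are not independent of each other.

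Whether a gene could be read went with its copy number and its coding length. Of the 84, 24 were listed at 0 in every genotype. Of these, 12 lie in sequence repeated in the inverted repeat, whatever their length, and 12 are single-copy genes of at most 135 nucleotides, such as *psbI*, *psbM*, *petN* and *rpl36*. All 47 single-copy genes of at least 300 nucleotides were above 0 in every genotype, and 46 of them were above 0 in all 8 replicates, the exception being *ndhC* in replicate a of the double mutant. Of the 24 single-copy genes below 300 nucleotides, 3 were above 0 in all 8 replicates. The coding sequences of a pair of short genes are shown from the RefSeq chloroplast genome of TAIR10.1 (Pltd, forward strand, start and stop codons in capitals) because their values lie at 0 in some libraries and at high levels in others. *petG* (Pltd:65998-66111), a small subunit of the cytochrome b6f complex, and *psbZ* (Pltd:35751-35939), a small subunit of photosystem II, read as follows.
petG: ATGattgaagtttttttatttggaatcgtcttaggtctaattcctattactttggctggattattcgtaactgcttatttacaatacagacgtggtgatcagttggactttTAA
psbZ: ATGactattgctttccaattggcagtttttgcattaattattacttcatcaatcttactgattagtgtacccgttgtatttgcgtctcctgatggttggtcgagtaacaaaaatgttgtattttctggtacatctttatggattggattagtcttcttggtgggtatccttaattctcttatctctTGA

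At 114 nucleotides, *petG* was listed at 0 in 7 replicates and at 1060 FPKM in replicate b of *pkl-1*. *psbZ*, at 189 nucleotides, was at 139 and 29.2 FPKM in Col-0, 57.6 and 31.3 in *pkl-1*, and listed at 0 in both replicates of *pkr2-2* and of the double mutant. *psbK*, another small photosystem II subunit, was at 312 and 32.6 FPKM in Col-0 and listed at 0 in both *pkr2-2* replicates. *rpl32*, for a ribosomal protein, was listed at 0 in 6 replicates and at 294 and 106 FPKM in replicate a of *pkr2-2* and of *pkl-1*. *rpl33*, for another, was at 0 and 37.6 FPKM in Col-0 and 98.6 and 148 in *pkr2-2*. In *petG* and *rpl32* the replicates of 1 genotype lie at 0 and at a high level, whereas in *psbZ* both replicates of a genotype are either at 0 or above it. The results below therefore lead with the 47 genes of at least 300 nucleotides and give all genes beside them.

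In *pkr2-2*, the chloroplast-encoded genes stayed near their level in Col-0. The median log2 ratio was 0.14 over the 53 genes with a ratio and 0.14 over the 47 longer ones, and the median of all genes was 0.02. A ratio needs a mean of at least 1 FPKM and a value above 0 in both genotypes. Of the 53, 0 were lower by more than 2 on the log2 scale, where 0.621% of all genes were, and 1 was higher, *rpl33*, where 0.931% were. The nearest gene below that threshold was *psbE*, at 1.58. At more than 1 on the log2 scale, 0 were lower and 5 higher, where 2.61% and 4.31% of all genes were. By limma, 0 of the 46 longer genes passed in either direction, where 1.73% of all genes fell and 3.41% rose. Over all 57, 2 passed as lower, 0 as higher, and 8 had an unadjusted p under 0.05. Those 2 were *psbZ* and *psbH*, both under 300 nucleotides and listed at 0 in *pkr2-2*. They entered the test only through genotypes in which they are high, so no difference is read from them. Without replicate a or b of Col-0, of *pkr2-2* or of *pkl-1*, *psbH* was no longer called.

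Of the functional groups, the ribosomal protein genes had the highest median log2 ratio in *pkr2-2*, 0.51 over 11 longer genes, and 3 of them are given here. *rpl14* was at 9.54 and 30.4 FPKM in Col-0 and at 49.7 and 42.5 in *pkr2-2*, a limma log2 fold change of 1.43 ± 0.62 (SE, adjusted p = 0.221). *rps3* was at 15.2 and 17.8 FPKM in Col-0 and at 32.8 and 26.7 in *pkr2-2* (limma log2 fold change 0.85 ± 0.24, adjusted p = 0.0883). *rpl16* was at 34.4 and 38.9 FPKM in Col-0 and at 74.8 and 56.0 in *pkr2-2* (limma log2 fold change 0.82 ± 0.25, adjusted p = 0.107). Replicates of the 2 genotypes did not overlap for these 3 genes, as was so for 27.8% of all genes in the same direction, and none of the 3 passed the adjusted threshold. *psbA*, which encodes the D1 protein of photosystem II, was at 16.3 and 18.4 FPKM in Col-0 and at 29.9 and 27.1 in *pkr2-2* (limma log2 fold change 0.71 ± 0.26, adjusted p = 0.152).

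**Figure D1:**
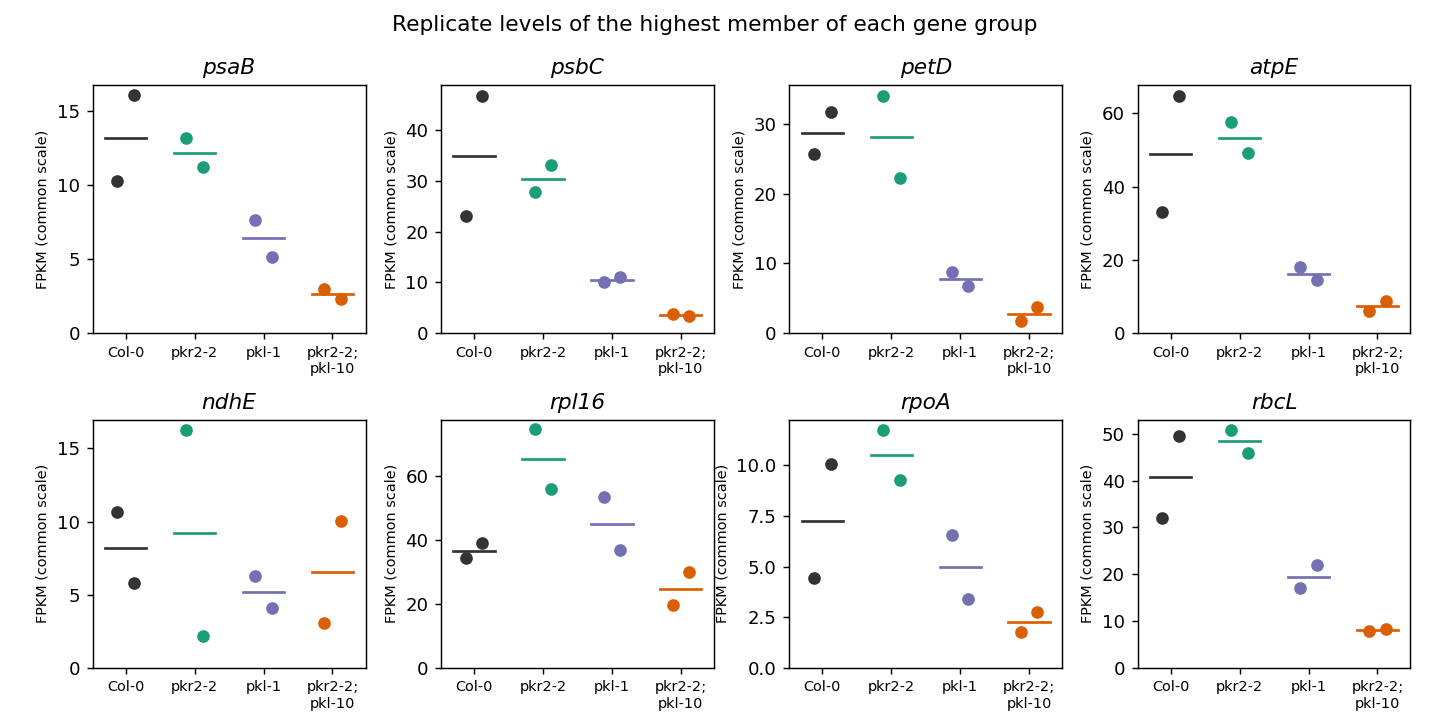
FPKM of 8 chloroplast-encoded genes, 1 from each functional group, in the 4 genotypes. Points are the 2 reconstructed replicates, lines their mean, and each axis starts at 0. In *rbcL* the double mutant replicates, at 7.83 and 8.19, lie below those of every other genotype, while in *ndhE* the replicates of the double mutant, at 3.05 and 10, overlap those of Col-0.

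In *pkl-1*, the median log2 ratio was -1.24 over 55 genes and -1.23 over the 47 longer ones, against -0.02 over all genes. Of the 55, 35 were lower by more than 1 on the log2 scale, where 7.7% of all genes were. At more than 2, the count was 4, where 1.79% of all genes were lower, and 0 were higher by more than 1 or more than 2, where 8.76% and 2.29% of all genes were. Of the 4 that were lower, 1, *ndhJ* at -2.59, was of at least 300 nucleotides. *rpoC1*, at -1.96, was nearest outside. By limma, 25 of 57 fell and 0 rose, where 17.3% of all genes fell and 14.6% rose, and 23 of the 46 longer genes tested were among them. The replicates of *pkl-1* lay below both Col-0 replicates in 34 of those 46, where 35.8% of all genes did so. The limma count of 25 was smaller without any 1 replicate of Col-0 or *pkl-1*, and fewer of all genes passed as lower in each such fit. The median limma log2 fold change of the 57 genes was -1.36 without replicate a of Col-0 and -1.06 without replicate b. It was -1.34 without replicate a of *pkl-1* and -0.94 without replicate b. Only *atpH*, for a membrane subunit of the ATP synthase, and *rpoB*, for the β subunit of the bacterial-type polymerase, were called without each of the 8 replicates in turn. Of these, *atpH* is under 300 nucleotides.

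In the double mutant, the chloroplast-encoded genes were lowest. The median log2 ratio to Col-0 was -2.43, over 53 genes and also over the 45 longer ones with a ratio, against 0.02 over all genes, and 2.26% of nuclear genes had a ratio below the median of the 53. Of the 53, 37 were lower by more than 2, where 3.63% of all genes were, and 48 by more than 1, where 10.6% were. None was higher by more than 1 or more than 2, where 14.1% and 4.26% of all genes were. The ratios of the longer genes ran from -3.76 in *ndhC* to -0.33 in *ndhE*, with *rps18* at -2.06 just inside the threshold of 2 and *rpl20* at -1.81 just outside. By limma, 44 of 57 fell and 0 rose, where 23.7% of all genes fell and 22.2% rose, and 41 of the 46 longer genes were among them. The longer genes that did not pass were *ndhE*, *ndhH*, *rpl14*, *rpl16* and *rpl20*. Both double mutant replicates were below both Col-0 replicates in 43 of 46, where 37% of all genes were. Without each replicate in turn, between 30 and 40 genes fell, and 27 of the 44 were called every time.

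**Figure D2:**
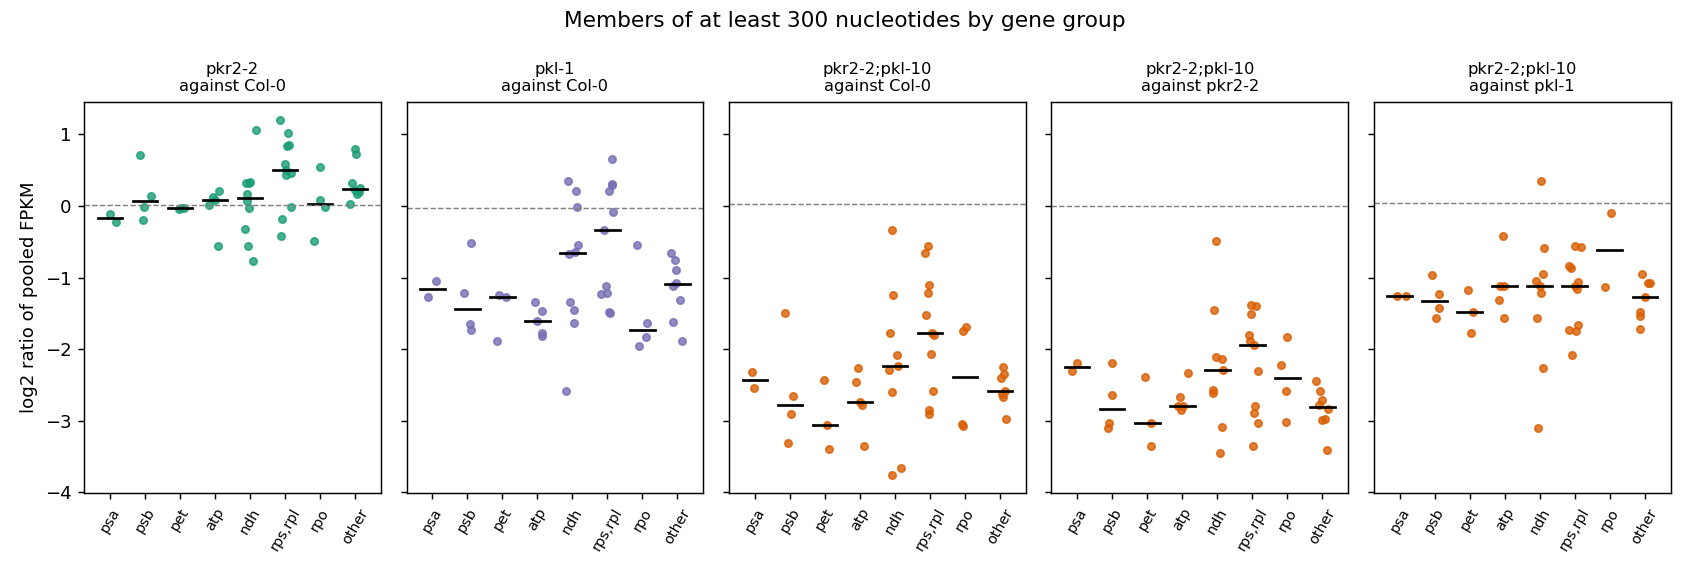
Log2 ratio of the authors' mean FPKM for chloroplast-encoded genes of at least 300 nucleotides, by functional group, in each of the 5 comparisons. Each point is a gene, black bars are group medians and the dashed grey line is the median of all genes. Every group median lies below 0 in the 4 comparisons that involve a *pkl* allele. Between the double mutant and Col-0 the medians run from -3.06 for the cytochrome b6f genes to -1.78 for the ribosomal protein genes.

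The photosystem genes followed this pattern. Among genes for photosystem I, the reaction centre subunit gene *psaB* (Pltd:37375-39579, reverse strand) was at 10.3 and 16.1 FPKM in Col-0, 13.2 and 11.3 in *pkr2-2*, 7.69 and 5.14 in *pkl-1* and 2.99 and 2.32 in the double mutant. Its replicates did not overlap between Col-0, *pkl-1* and the double mutant. Of all genes, 35.8% were lower without overlap from Col-0 to *pkl-1* and 24.4% from *pkl-1* to the double mutant. It fell in *pkl-1* by 1.02 (limma, adjusted p = 0.028) and in the double mutant by 2.25 (limma, adjusted p = 0.000723) on the log2 scale. *psaA*, for the other reaction centre subunit, which lies beside it in the same transcription unit, was at 9.06 and 15.8 FPKM in Col-0 and at 1.86 and 2.43 in the double mutant (limma log2 fold change -2.44 ± 0.27, adjusted p = 0.000469). *psaC*, for an iron-sulfur subunit, is under 300 nucleotides and was at 9.87 and 8.83 FPKM in Col-0 and 4.81 and 7.05 in the double mutant, with a limma adjusted p of 0.848.

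Among genes for photosystem II, *psbC* (Pltd:33720-35141, forward strand), which encodes the inner antenna protein CP43, was at 23.1 and 46.8 FPKM in Col-0, 27.8 and 33.3 in *pkr2-2*, 10.13 and 11 in *pkl-1* and 3.79 and 3.30 in the double mutant. It fell by 3.18 on the log2 scale in the double mutant against Col-0 (limma, adjusted p = 0.000239) and fell by 1.55 against *pkl-1* (limma, adjusted p = 0.045). *psbD*, for the D2 protein, is co-transcribed with it and was at 21.5 and 44.2 FPKM in Col-0 and 3.33 and 5.49 in the double mutant. *psbB*, for the antenna protein CP47, was at 11.8 and 19.5 FPKM in Col-0 and 2.24 and 2.73 in the double mutant. All 4 longer *psb* genes fell in the double mutant and 3 of 4 in *pkl-1*, where 23.7% and 17.3% of all genes fell. The one that did not pass in *pkl-1* was *psbA*, at 10.5 and 13.8 FPKM there and at 4.50 and 7.88 in the double mutant, a limma log2 fold change against Col-0 of -1.52 ± 0.26 (adjusted p = 0.00255).

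The promoter of *psbA* is a standard example of one read by the bacterial-type polymerase, with boxes like those of bacteria. In the 300 bases before each coding start, the motif TTGACA followed after 17 to 19 bases by TATNNT was searched on the coding strand, as a description of the sequence only. It was found before 1 of the 84 genes (1.19%), *psbA*, and in 1 of 514 tiles of the same length along the chloroplast genome (0.195%), or in 3 with both strands read (0.584%). It ends 85 bases before the coding start, at Pltd:1530-1559 on the reverse strand, with both boxes in capitals.
psbA: TTGACAtggctatataagtcatgtTATACT

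Among genes for the cytochrome b6f complex, all 3 longer members fell in the double mutant, where 23.7% of all genes fell. Their median log2 ratio to Col-0, -3.06, was the lowest of the groups. *petD* (Pltd:76481-77672, forward strand, with an intron), for subunit IV, was at 25.6 and 31.8 FPKM in Col-0, 34.0 and 22.2 in *pkr2-2*, 8.74 and 6.79 in *pkl-1* and 1.72 and 3.77 in the double mutant. Its replicates stepped down without overlap from Col-0 to *pkl-1* to the double mutant, as 35.8% of all genes did in the first step and 24.4% in the second. The fall of *petD* from Col-0 to the double mutant was 3.43 ± 0.36 on the log2 scale (limma, adjusted p = 0.000378). *petB*, for cytochrome b6, was at 20.6 and 18.4 FPKM in Col-0 and 4.56 and 2.69 in the double mutant. *petA*, for cytochrome f, was at 12.6 and 10.4 FPKM in Col-0 and 0.597 and 2.16 in the double mutant (limma log2 fold change -3.20 ± 0.49, adjusted p = 0.00171).

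All 5 longer genes for the ATP synthase fell in both *pkl-1* and the double mutant, where 17.3% and 23.7% of all genes fell. *atpB* (Pltd:52660-54156, reverse strand), for the β subunit, was at 30.1 and 42.6 FPKM in Col-0, 45.6 and 38.7 in *pkr2-2*, 15.7 and 13.1 in *pkl-1* and 4.91 and 8.28 in the double mutant. *atpE*, for the ε subunit, is read from the same transcript and was at 33.2 and 64.8 FPKM in Col-0, 17.9 and 14.4 in *pkl-1* and 5.97 and 8.78 in the double mutant. Both stepped down without overlap from Col-0 to *pkl-1* to the double mutant. Of all genes, 35.8% did so in the first step and 24.4% in the second. *atpH*, which at 246 nucleotides is one of the short genes, did not follow. It was at 19.8 and 26.5 FPKM in Col-0, 3.94 and 8.44 in *pkl-1* and 9.63 and 7.04 in the double mutant, and the last pair of genotypes overlap.

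*rbcL* (Pltd:54958-56397, forward strand), for the large subunit of Rubisco, had the smallest standard error of the 46 longer genes tested. It was at 31.9 and 49.6 FPKM in Col-0, 50.9 and 46.0 in *pkr2-2*, 17 and 21.9 in *pkl-1* and 7.83 and 8.19 in the double mutant. It fell by 1.04 ± 0.21 in *pkl-1* (limma, adjusted p = 0.00982) and by 2.30 ± 0.21 in the double mutant (limma, adjusted p = 0.000244) on the log2 scale, and the double mutant was below *pkl-1* by 1.26 ± 0.21 (limma, adjusted p = 0.0332).

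The 10 longer genes for the NAD(P)H dehydrogenase complex, which carries electrons around photosystem I, are expressed at lower levels and were more scattered. Of the 9 tested, 3 passed as lower for *pkl-1* and 7 for the double mutant, where 17.3% and 23.7% of all genes did. The median log2 ratio of the double mutant to Col-0 was -2.23 over the 9 with a ratio. *ndhC* was at 5.98 and 8.89 FPKM in Col-0 and at 0 and 1.10 in the double mutant. *ndhJ*, in the same transcription unit, was at 3.34 and 11.8 FPKM in Col-0 and at 0.177 and 1.03 in the double mutant. *ndhE* (Pltd:117804-118109, reverse strand) showed no such difference, at 10.6 and 5.80 FPKM in Col-0 and 3.05 and 10 in the double mutant (limma log2 fold change -0.49 ± 0.90, adjusted p = 0.679), and its *pkr2-2* replicates, at 16.3 and 2.18 FPKM, differed by more than any pair of genotype means. *ndhF*, at 0.928 and 1.25 FPKM in Col-0 and 0.309 and 0.422 in the double mutant, was below the filter on low values and was not tested.

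The ribosomal protein genes had the smallest median difference from Col-0 of the groups, both for *pkl-1* and for the double mutant. Of the 11 longer ones, 2 fell in *pkl-1* and 8 fell in the double mutant, where 17.3% and 23.7% of all genes fell. The count in *pkl-1* is near the share of all genes. Their median log2 ratios to Col-0 were -0.34 and -1.78. *rps4*, which is transcribed apart from the others, was at 9.55 and 7.59 FPKM in Col-0, 3.79 and 4.15 in *pkl-1* and 0.845 and 1.53 in the double mutant. It passed in both mutants, and the double mutant was below *pkl-1* by 1.71 ± 0.28 on the log2 scale (limma, adjusted p = 0.0292). *rpl16* (Pltd:81189-82652, reverse strand, with an intron) was at 53.3 and 36.7 FPKM in *pkl-1* and 19.6 and 30.0 in the double mutant, against 34.4 and 38.9 in Col-0. Its fold change between the double mutant and Col-0, -0.59 ± 0.25, did not pass (limma, adjusted p = 0.0897), whereas against *pkr2-2* it fell by 1.41 ± 0.25 (limma, adjusted p = 0.00462). *rps14*, which is co-transcribed with *psaA* and *psaB*, was at 20.4 and 24.4 FPKM in Col-0, 41.7 and 14.0 in *pkl-1* and 5.41 and 7.63 in the double mutant.

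In genome order, several of the smaller differences lay side by side. Of the large ribosomal protein cluster, which is read as a long unit, *rpl22*, *rps3*, *rpl16*, *rpl14* and *rpoA* are described here. Their median log2 ratio to Col-0 was 0.84 for *pkr2-2*, 0.21 for *pkl-1* and -1.10 for the double mutant. By limma, 3 of 5 fell in the double mutant against Col-0 and 5 of 5 against *pkr2-2*, where 23.7% and 21.5% of all genes fell. *rps3* was at 16.8 and 21.5 FPKM in *pkl-1* and 8.01 and 12.9 in the double mutant, a fall of 0.69 from Col-0 on the log2 scale (limma, adjusted p = 0.0479). *rpl22* was at 21.7 and 28.9 FPKM in Col-0 and 4.98 and 12.7 in the double mutant (limma log2 fold change -1.64 ± 0.37, adjusted p = 0.00904). These genes are only part of the unit and were picked out after their values were seen, so no test sets them against the other genes, and nothing is read from them about the unit as a whole.

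**Figure D3:**
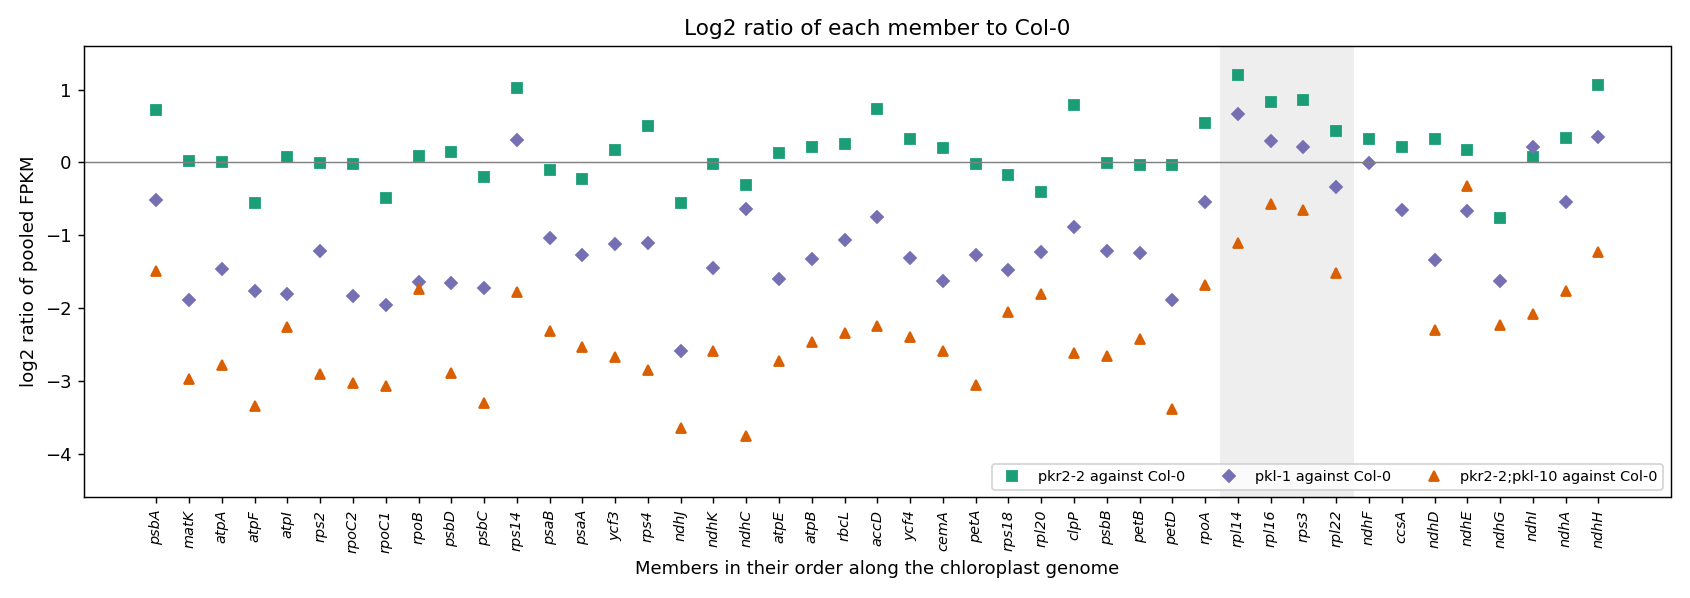
Log2 ratio to Col-0 of the authors' mean FPKM for chloroplast-encoded genes of at least 300 nucleotides that are reported singly, in genome order along the horizontal axis, for *pkr2-2*, *pkl-1* and the double mutant. The grey band marks *rpl14* to *rpl22*, where the double mutant ratio of *rpl16* is -0.56, and *ndhF* and *ccsA* have no double mutant point because their mean over both genotypes is below 1 FPKM.

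The genes for the bacterial-type polymerase itself were low in FPKM and also fell. *rpoB* (Pltd:23111-26329, reverse strand) was at 4.08 and 4.63 FPKM in Col-0, 4.24 and 5.01 in *pkr2-2*, 1.23 and 1.57 in *pkl-1* and 1.23 and 1.37 in the double mutant. It fell by 1.58 ± 0.26 in *pkl-1* (limma, adjusted p = 0.00478) and by 1.67 ± 0.26 in the double mutant (limma, adjusted p = 0.00197) on the log2 scale, and the last pair of genotypes differed by -0.09 ± 0.26. *rpoC1* and *rpoC2*, for the subunits read from the same unit, fell in the double mutant by 2.76 ± 0.46 (limma, adjusted p = 0.00236) and 2.64 ± 0.57 (limma, adjusted p = 0.0072). *rpoA*, for the α subunit, was at 4.43 and 10.06 FPKM in Col-0, 6.58 and 3.37 in *pkl-1* and 1.77 and 2.74 in the double mutant.

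In tobacco, *rpoB*, *rpoC1*, *rpoC2* and *accD* are read by the phage-type polymerase, and most photosynthesis genes by the bacterial-type one. Here the 4 genes of the first class had median log2 ratios of 0.03 for *pkr2-2*, -1.73 for *pkl-1* and -2.64 for the double mutant. The 10 longer *psa*, *psb*, *pet* and *rbcL* genes had medians of -0.03, -1.26 and -2.60. All 4 and all 10 fell in the double mutant, where 23.7% of all genes fell. *accD*, for a subunit of acetyl-CoA carboxylase in fatty acid synthesis, was at 3.40 and 4.94 FPKM in Col-0, 7.21 and 6.65 in *pkr2-2*, 2.68 and 2.28 in *pkl-1* and 0.937 and 0.826 in the double mutant. Its fall of 2.1 ± 0.27 in the double mutant passed the test (limma, adjusted p = 0.000781), and the difference in *pkl-1*, -0.71 ± 0.27, did not (limma, adjusted p = 0.0781). *matK*, for an intron maturase, and *clpP*, for a protease subunit, fell in the double mutant by 2.84 ± 0.39 (limma, adjusted p = 0.00104) and 2.40 ± 0.50 (limma, adjusted p = 0.00638).

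The libraries were made from RNA bound to oligo(dT) beads, while chloroplast mRNA does not carry the long poly(A) tail of nuclear mRNA, so the runs of A inside the coding sequences are shown for the 3 genes with the longest ones and for *rpoB*. Each line gives 30 bases of the coding strand, with the run in capitals.
rpoA: aacctaagAAAAAAAAAAAAAAcaaaagaa
rpoC2: gagtagagAAAAAAAAAAAAAggattgaac
accD: tttttgatAAAAAAAAAAAAAtttttgaga
rpoB: cgataaggagAAAAAAAAAAtaggatcaaa

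These lie at Pltd:78087-78116 (reverse strand), Pltd:17917-17946 (reverse), Pltd:57364-57393 (forward) and Pltd:25674-25703 (reverse), and the runs hold 14, 13, 13 and 10 bases. Over the 45 longer genes with a ratio, the correlation of the log2 ratio of the double mutant to Col-0 with the length of the longest run was -0.02 (Pearson). It was 0.03 with the log2 FPKM in Col-0, -0.22 with log2 coding length, -0.27 with GC content and 0.43 with the share of A in the coding sequence (Spearman 0.34). These points are genes that share libraries, transcripts and base composition, so the values are descriptions. What share of chloroplast RNA passed the oligo(dT) step in each library was not tested.

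The double mutant was then compared with each single mutant. Against *pkr2-2*, the median log2 ratio was -2.60 over 52 genes and over the 46 longer ones, against 0.01 over all genes. Of the 52, 41 were lower by more than 2, where 2.82% of all genes were, and 50 by more than 1, where 8.85% were. None was higher by more than 1 or more than 2, where 9.99% and 2.64% of all genes were. By limma, 44 of 57 fell and 0 rose, where 21.5% of all genes fell and 15.6% rose, and 32 of the 44 were called without each replicate in turn. *psbA* went from 29.9 and 27.1 FPKM in *pkr2-2* to 4.50 and 7.88 in the double mutant, a fall of 2.24 ± 0.26 on the log2 scale (limma, adjusted p = 0.000838). Of the 46 longer genes, 42 passed, and the exceptions were *rps18*, *rpl20*, *ndhE* and *ndhG*.

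Against *pkl-1*, the median log2 ratio was -1.12 over 50 genes and -1.17 over the 43 longer ones, against 0.05 over all genes. Of the 50, 33 were lower by more than 1, where 2.49% of all genes were, and 4 by more than 2, where 0.587% were. None was higher by more than 1 or more than 2, where 3.42% and 0.631% of all genes were. By limma, 6 of 57 fell and 0 rose, where 1.62% of all genes fell and 0.532% rose. Those that fell were *psbC*, *psbB*, *rps4*, *rbcL*, *accD* and the short *psbZ*. The replicates of the double mutant lay below both *pkl-1* replicates in 39 of the 46 longer genes, where 24.4% of all genes did so. The limma count of 6 was smaller without any 1 replicate other than replicate b of the double mutant. Fewer of all genes passed as lower in each such fit as well. The median limma log2 fold change of the 57 genes was -1.11 without replicate a of *pkl-1* and -1.38 without replicate b. It was -0.89 without replicate a of the double mutant and -1.41 without replicate b. None of the 5 longer genes was called every time. *psbZ*, at 0 in both replicates of the double mutant, entered the test only through Col-0 and *pkl-1*, and nothing is read from its call.

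A last comparison asked whether the difference made by the *pkl* allele was the same with and without PKR2, as the double mutant less *pkr2-2* set against *pkl-1* less Col-0, which share no library. Over the 46 longer genes tested, this difference of differences had a median of -1.46 on the limma log2 scale and was below 0 in 44. By limma with Benjamini-Hochberg adjustment, 0 of 57 passed in either direction, where 0.154% of all genes passed as lower and 0.0329% as higher. At an unadjusted p under 0.05 the count was 28 of 57, where 13.2% of all genes were. Without replicate a of *pkl-1*, 1 gene passed as lower, and without either replicate of the double mutant 1 passed as higher. The larger difference in the absence of PKR2 is therefore not shown for any single gene at this replication, and the *pkl* alleles differ between its terms.

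**Figure D4:**
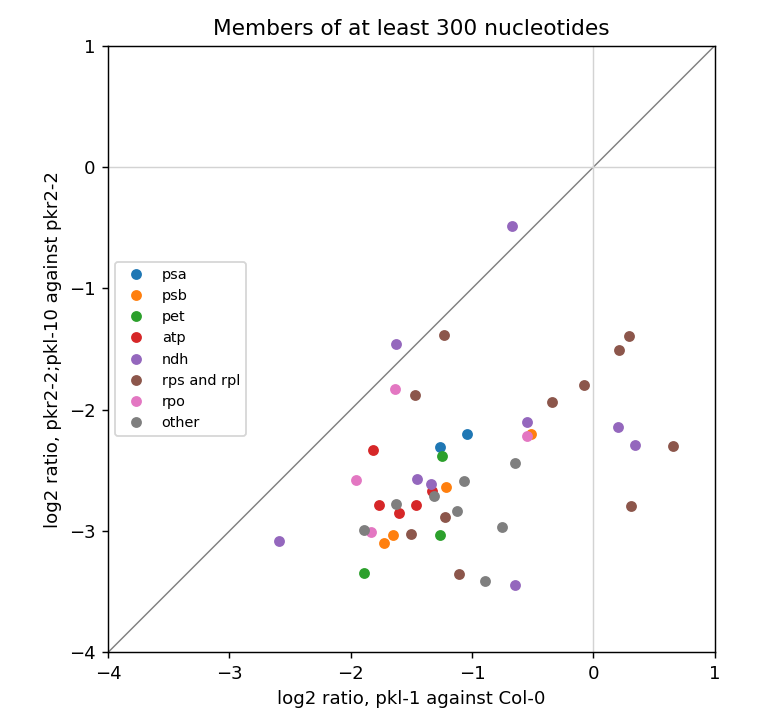
Log2 ratio of *pkl-1* to Col-0 on the horizontal axis and of the double mutant to *pkr2-2* on the vertical axis, from the authors' mean FPKM. Each point is a chloroplast-encoded gene of at least 300 nucleotides, coloured by functional group. The diagonal marks equal ratios, and 44 of 46 of the chloroplast-encoded genes lie below it. Of all genes, which are not drawn, 9100 of 17430 would lie below it.

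Nuclear genes of lists that bear on chloroplast RNA were read beside these values. Of 28 nuclear genes for subunits of the same complexes, 17 fell in *pkl-1*, 18 in the double mutant, 1 in *pkr2-2*, 6 between *pkr2-2* and the double mutant and 0 between *pkl-1* and the double mutant, with 0 that rose in each. Of all genes, 17.3%, 23.7%, 1.73%, 21.5% and 1.62% fell in these comparisons. Their median log2 ratio was -0.52 for *pkl-1* and -0.58 for the double mutant. *RBCS1A*, for the small subunit of Rubisco, fell by 0.87 ± 0.14 in *pkl-1* (limma, adjusted p = 0.00385) and by 0.71 ± 0.14 in the double mutant (limma, adjusted p = 0.00465), while *rbcL* differed between these 2 genotypes as given above. Of 19 tested genes for chloroplast transcription, 4 fell and 2 rose in *pkl-1*, and 5 fell and 3 rose in the double mutant, with a median log2 ratio of 0.04. These counts are near the shares of all genes, of which 17.3% fell and 14.6% rose in *pkl-1* and 23.7% fell and 22.2% rose in the double mutant. Those that fell in the double mutant include *TRX z*, *FSD2* and *FLN1*, which encode proteins associated with the bacterial-type polymerase. *TRX z* was at 30.5 and 29.1 FPKM in Col-0, 18.6 and 27.9 in *pkr2-2*, 15.1 and 17.2 in *pkl-1* and 10.9 and 10.9 in the double mutant. Those that rose include the sigma factor genes *SIGC* and *SIGE*, and *SIGE* was at 5.17 and 4.77 FPKM in Col-0, 9.91 and 11 in *pkr2-2*, 7.50 and 8.48 in *pkl-1* and 13.4 and 14.0 in the double mutant.

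Of 14 nuclear genes for chloroplast RNA processing and stability, 3 fell and 3 rose in the double mutant, near the 23.7% and 22.2% of all genes, with a median log2 ratio of 0.13. *CP29*, for a chloroplast RNA-binding protein, fell in all 5 comparisons. It was at 319 and 366 FPKM in Col-0, 136 and 180 in *pkr2-2*, 134 and 180 in *pkl-1* and 61.7 and 52.8 in the double mutant. Its fold change to Col-0 was -1.13 ± 0.18 in *pkr2-2* (limma, adjusted p = 0.0176), where the chloroplast-encoded genes stayed near Col-0, and -2.58 ± 0.18 in the double mutant (limma, adjusted p = 0.000104). The part of these nuclear genes in the chloroplast RNA levels was not tested.

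Genes of the mitochondrial genome, the other organelle genome, moved in part alike. Of 12 tested, 4 fell in *pkl-1*, 8 in the double mutant against Col-0, 10 against *pkr2-2* and 3 against *pkl-1*, where 17.3%, 23.7%, 21.5% and 1.62% of all genes fell. In *pkr2-2* against Col-0, 0 fell and 1, *nad5*, rose (limma, adjusted p = 0.0278). Their median log2 ratio was 0.53 for *pkr2-2*, -0.12 for *pkl-1* and -1.94 for the double mutant. The ribosomal RNA *rrn26* was at 571 and 797 FPKM in Col-0, 824 and 830 in *pkr2-2*, 280 and 231 in *pkl-1* and 63.2 and 111 in the double mutant. *nad5*, for a subunit of complex I, was at 12 and 14.1 FPKM in Col-0 and at 13.9 and 15.4 in the double mutant, so the mitochondrial genes did not move as 1 group.

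Marker genes of seed tissues also differed between genotypes. The summed FPKM of 4 embryo markers was 126 to 193 in Col-0, 111 to 139 in *pkr2-2*, 59.2 to 65.1 in *pkl-1* and 47.1 to 53.6 in the double mutant, so it was lower in *pkl-1* and the double mutant, as the chloroplast-encoded genes were. That of 7 endosperm markers was 106 to 115 in Col-0, 90.1 to 92.3 in *pkr2-2*, 56.4 to 64.0 in *pkl-1* and 46.3 to 48.3 in the double mutant. The 5 seed coat markers summed to 1122 to 1431 in Col-0 and 1542 to 1559 in the double mutant, and 3 silique wall and leaf markers to 43.9 to 66.6 and 77.0 to 142. None of these markers was listed at 0 in any genotype. Embryo markers that exceeded 1 FPKM numbered 4 for Col-0, 3 for *pkl-1* and 2 for the double mutant. Endosperm markers past that level numbered 5, 6 and 6, although their sum fell, so the markers of this list did not all move alike. Whether the loss of PKL or PKR2 changes the marker genes directly was not tested, so the sums do not measure tissue makeup alone. Fewer cells of a type and less RNA per cell cannot be told apart in whole seeds, and the part of tissue makeup in the levels of the chloroplast-encoded genes was not tested.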

How the data were processed

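RNA from seeds of 8 samples was bound to oligo(dT) beads, depleted of rRNA and sequenced in paired-end reads at a stated depth of 20000000 reads. Trimming by the authors used Fastp and mapping used TopHat2 2.1.1 on TAIR10.1. The authors ran Cufflinks 2.2.1.3 with geometric normalization in 5 separate comparisons. The deposited FPKM are the authors' means over both replicates, and 0 per-sample columns were left unused. The tables also hold the authors' fold changes, test statistics, p-values and q-values, which were not used. Genes marked HIDATA (4) were left out.

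Log2 ratios carry no pseudocount, and a mean of at least 1 FPKM was required. A genotype's means in different tables weight its replicates by slightly different factors, so their ratio gives each replicate's share. For Col-0 and the double mutant, where 2 routes exist, the shares differed by medians of 0.000473 and 0.000569. In genes seen in 1 replicate, 93.2% to 98.5% of values were within 0.1 of a whole multiple of a step, from which fragments were estimated. For the chloroplast-encoded genes themselves 30 of 56 estimates below 40 fragments (53.6%) were within 0.1 of a whole number, so their fragment numbers are approximate. Replicate letters carry no number from the labels, and neither the tables' scaling nor shared libraries make the 5 comparisons independent. This reconstruction, the limma test on it (log2(FPKM + 0.1), trend, 4 genotypes in 1 fit) and the difference of differences were added after the data were seen, since the planned description of pooled values had no test. The limma test was also run on simulated data for the double mutant against Col-0 over 18223 genes. It recovered 33 of 50 genes with a log2 change of -2, 19 of 50 at -1, 26 of 50 at 1 and 36 of 50 at 2. There were 6 false calls among 18023. Genes were drawn independently of each other and the reconstruction was not simulated. These counts therefore do not cover genes that move together between replicates, as the chloroplast-encoded genes do.

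The members and gene lists were chosen with earlier results of these data known. Genes named are, per group, the 3 highest in Col-0, all *rpo* genes, *rbcL*, *accD*, *clpP*, *matK*, the 3 lowest and highest ratios of each comparison, genes listed at 0 in a genotype and those next to the threshold. *psbA*, *psbB*, *psbC*, *psbD*, *rps3*, *rps4*, *ndhF* and the nuclear and mitochondrial genes were named after their values were seen where they fall outside it. Some genes are counted in the totals but not reported here singly. Marker lists cover seed coat, endosperm, embryo, and silique wall and leaf. Alternatives were pseudocounts, filters, thresholds, centring, gene copies, coding length and leaving out replicates. R 4.3.3 with limma 3.58.1 and Python 3.11.15 with scipy 1.17.1, pandas 2.3.3, numpy 2.4.6 and matplotlib 3.10.9 were used.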

Additional observations from a re-analysis of the deposited data

How the results depend on the processing

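The median log2 ratio of the authors' means over the chloroplast-encoded genes kept its direction under every alternative for it in all 5 comparisons. The median of the limma fold changes for *pkr2-2*, 0.09, turned to -0.03 without replicate a of Col-0. With 1 FPKM added, the median log2 ratio of the double mutant moved to -1.92 against Col-0 and -1.94 against *pkr2-2*. The counts of genes past 2 on the log2 scale depended on the settings. For *pkr2-2* against Col-0 they were 3 lower and 2 higher with 1 or 0.1 FPKM added, 5 higher at a threshold of 1 and 0 higher over genes of at least 300 or 600 nucleotides. For *pkl-1* the count of higher genes was 2 with 1 FPKM added and 3 with 0.1, and that of lower genes 2 at a mean of at least 5 FPKM, 35 at a threshold of 1, 1 from 300 nucleotides and 0 from 600. For the double mutant against Col-0 the lower count was 22 with 1 FPKM added, 23 at a mean of at least 5 and 20 from 600 nucleotides. Against *pkr2-2* it was 26 with 1 FPKM added and at a mean of at least 5, and 25 from 600 nucleotides, with 2 higher under either pseudocount. Against *pkl-1* it was 8 with 0.1 FPKM added, 2 at a mean of at least 5, 33 at a threshold of 1 and 0 from 600 nucleotides, with 1 higher under either pseudocount. At a mean of at least 5 FPKM the *ndh* median against *pkl-1* turned to 0.36, with fewer genes left. By limma the lower count for *pkr2-2* and that for the double mutant against *pkl-1* were each 1 with no filter and with no trend, and that for the double mutant against Col-0 was 29 at a mean of at least 5. Leaving out 1 replicate, where the lone sample of a genotype is assumed to vary like the others, gave 1 to 2 lower calls in *pkr2-2*, 6 to 23 in *pkl-1*, 30 to 40 in the double mutant against Col-0, 34 to 44 against *pkr2-2*, 1 to 6 against *pkl-1* and 0 to 1 for the difference of differences, with 0 to 1 higher calls. Of the limma results of named genes under all settings, 3167 stayed on their side of the threshold, 40 newly passed and 159 no longer passed. No paired analysis was possible because the reconstructed replicates carry no number from the labels. Depth limits the short and weakly expressed genes most, with an estimated median of 35.2 and 44.5 fragments over the 28 genes of at least 600 nucleotides in the replicates of the double mutant.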

Other observations

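Among the genes of the chloroplast genome outside the 84 is a *ycf1* gene whose locus tag is in lower case. It encodes a large protein of the chloroplast envelope. It was at 1.82 and 2.85 FPKM in Col-0, 5.05 and 2.42 in *pkr2-2*, 5.11 and 3.31 in *pkl-1* and 1.48 and 2.59 in the double mutant. Its replicates overlap between Col-0 and the double mutant, and its fold change there was -0.21 ± 0.45 on the log2 scale (limma, adjusted p = 0.733).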
